A study of Mus musculus with 10 samples.

Results

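The 10 genes described here encode proteins of the intestinal microvillus. They are Vil1, Espn and Pls1, whose products bundle actin, Eps8 at the tip, Ezr and Myo1a, which tie the actin core to the membrane, and Cdhr2, Cdhr5, Ush1c and Myo7b, which link neighbouring microvilli at their tips. They were taken by symbol from the 20579 genes of a deposited count table. All 10 were in the table, and all 10 passed the filter on low counts that left 16710 genes for testing. The table came from RNA sequencing of cells sorted by green fluorescent protein (GFP) made under the Hopx promoter, taken from the intestine of mouse embryos at E18.5, late in gestation. The first group is 5 libraries with the genotype label p57KO, in which p57Kip2, the cyclin-dependent kinase inhibitor encoded by Cdkn1c, was knocked out, and the second is 5 libraries labelled p57WT, wild type for p57. Both groups have the strain label C57BL6/J / 129S4, and in both the sort rested on GFP expressed under the Hopx promoter, so GFP marks whatever cells use that promoter. No source used here gives the knockout allele or the sex of the embryos. The series' design text counts 5 intestines per genotype, and nothing else ties a library to an animal, so p-values measure the spread between these libraries.

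A microvillus is a finger of membrane around a core of parallel actin filaments, and enterocytes carry a dense carpet of them, the brush border, on the face that meets the gut lumen. Villin, espin and plastin 1 bundle the filaments, ezrin and myosin 1a hold the membrane to the bundle, and EPS8 sits where the filaments grow, at the tip. The protocadherins CDHR2 and CDHR5 reach from tip to tip between neighbouring microvilli and are anchored inside the cell by the scaffold harmonin, the product of Ush1c, together with ANKS4B, CALML4 and the motor myosin 7b. In the fetal mouse gut the brush border takes shape as the epithelium folds into villi before birth.

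Total counts ranged from 8037887 to 26809231 per library. Levels are given as CPM, counts scaled to one library size for all, after scaling by the trimmed mean of M values (TMM), which equalizes libraries on the bulk of their genes. A gene was called changed where edgeR's quasi-likelihood test gave a p below 0.05 after Benjamini-Hochberg adjustment across the 16710 genes. Cdkn1c averaged 0.840 ± 0.764 CPM in p57KO and 230.4 ± 129 CPM in p57WT (SD, n = 5 each), and no library went against its genotype label. Hopx, the gene behind the sort, averaged 151 ± 30.6 CPM in p57KO and 71.3 ± 6.73 CPM in p57WT (edgeR adjusted p = 0.00191). The cell label names intestinal stem cells, but smooth muscle RNA was abundant. The 9 smooth muscle markers summed to 5117, 8517, 36367, 28562 and 23127 CPM in p57KO 1 to 5, against 48503, 108806, 61734, 64583 and 58585 CPM in p57WT 1 to 5. The 18 epithelial markers, which share no gene with the 10, summed to 13354, 13487, 7522, 8099 and 6780.1 CPM in p57KO 1 to 5, against 5705, 3619, 3486, 3672 and 2510.2 CPM in p57WT 1 to 5. The smooth muscle sum was the higher of the pair in p57KO 3 to 5 and in all 5 p57WT libraries, and no marker of either list was at 0 in all libraries of a genotype. The descriptions also carry a number of unstated meaning, 607 for p57KO 1, p57KO 2 and p57WT 1, 608 for p57KO 3 to 5, and 740 for p57WT 2 to 5.

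RNA of the microvillus genes was higher in p57KO with TMM scaling, and level with general epithelial RNA on the median. Summed over the 10 genes, the level was 1716, 1848, 1818, 1648 and 1649.6 CPM in p57KO 1 to 5, against 1011, 571, 869, 749 and 523 CPM in p57WT 1 to 5. Every p57KO library was above every p57WT library in this sum, and the p57KO sums lay closer together. By gene, 8 of 10 rose in p57KO and 0 fell, against a background of 36.5% of all genes called in either direction and 19.3% called higher; all 10 log2 fold changes (p57KO over p57WT) were above 0 with TMM, whereas 7 of 10 were below 0 once libraries were scaled to the epithelial markers. The exceptions to the calls were Espn and Myo7b. The 8 calls dropped to 6 with a term for the share of ribosomal RNA repeats and to 0 with a term for label number, nearly the same split as genotype, where 1009 of all genes passed. Over the 10 genes the median log2 fold change was 1.26, beside 0.080 for all genes tested. For 6 of the genes, Pls1, Eps8, Myo1a, Cdhr2, Cdhr5 and Ush1c, every p57KO library was above every p57WT library, as was so for 11.5% of all genes (24.2% were apart in either direction). The authors' deposited table also has adjusted p-values below 0.05 for the same 8 genes, and for 7726 of its 20579 genes in all. The log2 fold changes there were 0.91 for Vil1 and 2.34 for Pls1 at the ends of the 8. The authors' adjusted p was 0.172 for Espn and 0.418 for Myo7b.

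Epithelial RNA as a whole was also higher in p57KO, and the picture was different relative to it. Of the 18 epithelial markers 13 rose and 0 fell, with a median log2 fold change of 1.18, close to the 1.26 of the microvillus genes. In these bulk samples, more epithelial cells and more RNA per epithelial cell in p57KO cannot be told apart. When each library was scaled to its summed epithelial markers in place of TMM, the median of all genes moved to -1.29 and that of the 10 genes to -0.083. The distance between these medians was 1.18 with TMM and 1.21 with epithelial scaling. Rescaling a library moves all its genes alike, so this distance was nearly fixed in advance. With this scaling 62.9% of all genes were called. Pls1 alone of the 10 was called higher, where 2.44% of all genes were, and Myo7b alone lower, where 60.5% were. With the geometric mean of the markers in place of their sum, where 57.5% of all genes were called, Pls1 and Cdhr5 were called higher, beside 3.3% of all genes, and Myo7b lower, beside 54.2%. The part of epithelial content in the TMM differences was not tested beyond this rescaling. The 14 enterocyte markers, digestive enzymes and lipid carriers among them, summed to 3866, 9185, 6029.6, 7410.5 and 5618 CPM in p57KO 1 to 5, against 1411, 576, 1821, 965 and 637 CPM in p57WT 1 to 5, and 11 of 13 tested rose. Their median log2 fold change was 2.43 with TMM and 1.27 on the epithelial scale. On the latter scale 7 of the 13 were called higher and 0 lower, beside 2.44% and 60.5% of all genes.

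**Figure D1:**
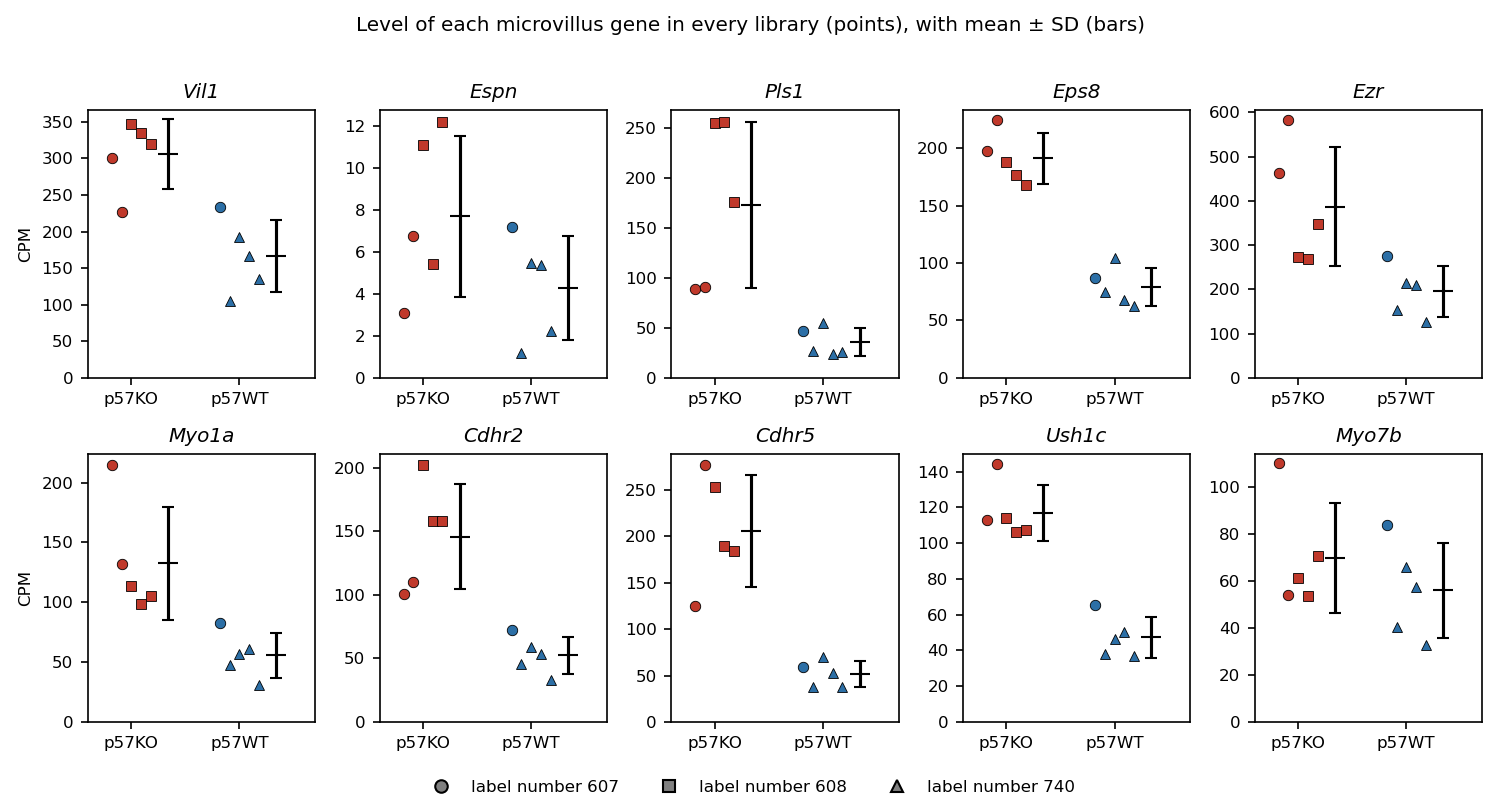
Level of each of the 10 microvillus genes (CPM, linear axis from 0) in each library, p57KO left of p57WT, with bars for the mean ± SD and symbols for the label number. All p57KO points lie above all p57WT points for Pls1, Eps8, Myo1a, Cdhr2, Cdhr5 and Ush1c, and the groups overlap for Vil1, Espn, Ezr and Myo7b.

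To show what lies upstream of these genes, promoter windows from 250 bases before to 50 bases after the transcription start were taken from RefSeq on GRCm38.p6, and 8 of the 10 genes had at least 1 window, 10 windows in all since Espn has 3. Of these, 4 are printed because they stand for different roles and for the range of outcomes: Vil1 and Ezr, which overlapped between genotypes, and Cdhr2 and Pls1, which did not. The windows are chr1:74409134-74409433, plus strand for Vil1, chr13:54701213-54701512, plus strand for Cdhr2, chr9:95845230-95845529, minus strand for Pls1 and chr17:6782731-6783030, minus strand for Ezr. Each reads 5′ to 3′ on the gene's strand, and capitals mark matches on either strand to the letters searched for.
Vil1: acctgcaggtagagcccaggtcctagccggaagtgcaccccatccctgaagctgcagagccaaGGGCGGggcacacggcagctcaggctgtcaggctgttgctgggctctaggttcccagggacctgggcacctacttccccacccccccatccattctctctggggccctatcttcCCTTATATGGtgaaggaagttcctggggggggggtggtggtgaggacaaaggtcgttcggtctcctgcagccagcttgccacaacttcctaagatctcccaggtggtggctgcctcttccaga
Cdhr2: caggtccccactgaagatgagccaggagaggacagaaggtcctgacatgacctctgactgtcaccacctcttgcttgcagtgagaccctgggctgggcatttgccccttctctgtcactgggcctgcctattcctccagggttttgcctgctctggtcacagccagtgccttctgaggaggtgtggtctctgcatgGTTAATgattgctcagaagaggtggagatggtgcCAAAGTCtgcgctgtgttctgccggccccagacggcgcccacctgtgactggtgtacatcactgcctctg
Pls1: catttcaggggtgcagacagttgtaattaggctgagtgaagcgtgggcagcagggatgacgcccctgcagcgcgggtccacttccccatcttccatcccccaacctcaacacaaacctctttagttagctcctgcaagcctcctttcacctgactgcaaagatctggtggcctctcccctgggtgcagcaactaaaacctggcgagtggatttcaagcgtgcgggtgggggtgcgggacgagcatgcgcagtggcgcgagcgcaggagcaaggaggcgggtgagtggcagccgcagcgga
Ezr: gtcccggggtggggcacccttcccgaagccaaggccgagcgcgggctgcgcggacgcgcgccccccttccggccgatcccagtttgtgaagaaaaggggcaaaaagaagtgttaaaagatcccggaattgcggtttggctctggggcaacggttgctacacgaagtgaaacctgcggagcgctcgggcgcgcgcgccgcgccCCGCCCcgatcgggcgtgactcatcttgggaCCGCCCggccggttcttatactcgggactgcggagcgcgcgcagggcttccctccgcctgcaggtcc
The Vil1 window held a GC box and a CArG box, the Cdhr2 window a Hnf1 and a Hnf4 match, the Ezr window 2 GC boxes and the Pls1 window none of the searched letters. The windows differ in composition, with G and C making up 61.7% of the Vil1 window, 58.0% of Cdhr2, 60.7% of Pls1 and 68.0% of Ezr. They hold 5, 4, 16 and 38 CG dinucleotides in the same order, so the Ezr window is the CG-dense one. Cdx letters (TTTATNG) were in 1 of the 10 windows, at Espn, beside 10.9% of all 32851 windows. Hnf4 letters (CAAAGTC) were in 1, beside 4.44%. Hnf1 letters (GTTAAT) were in 1, beside 7.10%. Gata letters (AGATAAG) were in 0, beside 3.04%. The GC box (GGGCGG) was in 5, at Espn, Ezr, Ush1c and Vil1, beside 35.7%. The TATA box (TATAAA) was in 0, beside 13.6%, and the CArG box was in 1, beside 1.63%. Cdx and CArG matches can contain a TATA box, and a match describes letters only.

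Vil1 encodes villin, which bundles and also severs actin and is the classic marker of the brush border (ENSMUSG00000026175, chromosome 1, 74409376 to 74435559, plus strand, GRCm38). It was at 300.1, 227, 347, 335 and 320.1 CPM in p57KO 1 to 5, against 233, 106, 193, 167 and 135 CPM in p57WT 1 to 5. Apart from p57KO 2, which was just under p57WT 1, the p57KO libraries were the higher ones. The means were 306 ± 47.6 CPM in p57KO and 167 ± 49.6 CPM in p57WT (SD, n = 5 each), and Vil1 rose (log2 fold change 0.88, SE 0.25, 95% limits 0.33 to 1.42, edgeR adjusted p = 0.0164). Relative to the epithelial markers its log2 fold change was -0.37 (95% limits -1.15 to 0.41, edgeR adjusted p = 0.384), so the direction was the opposite there and did not pass.

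Pls1 encodes plastin 1, or fimbrin, a compact bundler that spaces the core filaments (ENSMUSG00000049493, chromosome 9, 95752642 to 95845311, minus strand). Its printed promoter held no match. Pls1 was at 88.6, 90.8, 255, 256 and 176 CPM in p57KO 1 to 5, against 46.6, 26.8, 54.5, 23.9 and 26.1 CPM in p57WT 1 to 5. It separated the genotypes fully, and p57KO 1 and 2, the pair with label number 607, were well below p57KO 3 to 5. The means were 173 ± 82.8 CPM in p57KO and 35.6 ± 14.0 CPM in p57WT (SD, n = 5 each), and this was the largest change of the 10 (log2 fold change 2.28, SE 0.38, 95% limits 1.47 to 3.10, edgeR adjusted p = 0.00103), above 96.3% of all log2 fold changes. Relative to the epithelial markers Pls1 had a log2 fold change of 1.12 (95% limits 0.12 to 2.13, edgeR adjusted p = 0.0483). Per 1000 CPM of epithelial marker, however, p57KO 1 and 2, at 6.63 and 6.73, lay within the p57WT range of 6.52 to 15.6. Within label number 607 the epithelial-scaled value was -0.29 (edgeR adjusted p = 0.688).

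Espn encodes espin, a small bundler that lengthens parallel actin bundles, and it was the scarcest of the 10 (ENSMUSG00000028943, chromosome 4, 152120331 to 152152371, minus strand). It was at 3.10, 6.73, 11.1, 5.41 and 12.2 CPM in p57KO 1 to 5, against 7.17, 1.19, 5.45, 5.36 and 2.25 CPM in p57WT 1 to 5. The genotypes overlapped widely, with p57KO 1 below 3 of the 5 p57WT libraries. The means were 7.70 ± 3.84 CPM in p57KO and 4.28 ± 2.48 CPM in p57WT (SD, n = 5 each), and the difference did not pass (log2 fold change 0.86, SE 0.52, 95% limits -0.26 to 1.97, edgeR adjusted p = 0.205). These limits leave room for a change as large as that of most of the other genes. Epithelial scaling gave Espn a log2 fold change of -0.23 (95% limits -1.46 to 0.99, edgeR adjusted p = 0.732).

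Eps8 encodes a capping and bundling protein that marks the tips of microvilli from early in their assembly (ENSMUSG00000015766, chromosome 6, 137477245 to 137654876, minus strand). It was at 198, 225, 188, 177 and 168 CPM in p57KO 1 to 5, against 86.8, 75.1, 105, 68.0 and 62.5 CPM in p57WT 1 to 5. The lowest p57KO library was well above the highest p57WT library. The means were 191 ± 22.0 CPM in p57KO and 79.4 ± 16.8 CPM in p57WT (SD, n = 5 each), and Eps8 rose (log2 fold change 1.27, SE 0.21, 95% limits 0.82 to 1.72, edgeR adjusted p = 0.00103). Its coefficient of variation was 11.5% in p57KO and 21.1% in p57WT, so it was among the steadier genes. Relative to the epithelial markers the log2 fold change was -0.083 (95% limits -0.76 to 0.59, edgeR adjusted p = 0.827).

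Ezr encodes ezrin, which links membrane proteins to cortical actin when phosphorylated and is made in nearly all epithelia (ENSMUSG00000052397, chromosome 17, 6738041 to 6782784, minus strand). It was at 463, 582, 274, 269 and 348 CPM in p57KO 1 to 5, against 274, 153, 215, 211 and 126 CPM in p57WT 1 to 5. Here p57KO 1 and 2 were the highest libraries, the reverse of their place for Pls1, while p57KO 3 and 4 lay within the p57WT range. The means were 387 ± 134 CPM in p57KO and 196 ± 58.1 CPM in p57WT (SD, n = 5 each), and Ezr rose (log2 fold change 0.98, SE 0.30, 95% limits 0.35 to 1.62, edgeR adjusted p = 0.0202). The call was lost without p57WT 5 (log2 fold change 0.86, edgeR adjusted p = 0.0541) and without p57KO 1 and 2 (log2 fold change 0.65, edgeR adjusted p = 0.0684). It was also lost with a term for libraries in which ribosomal RNA repeats took over 1% of counts, p57KO 5 and p57WT 1, 3, 4 and 5 (log2 fold change 1.06, edgeR adjusted p = 0.0810). Epithelial scaling put Ezr at -0.39 (95% limits -1.04 to 0.26, edgeR adjusted p = 0.276).

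Myo1a encodes the single-headed myosin that bridges the core bundle and the lateral membrane (ENSMUSG00000025401, chromosome 10, 127705170 to 127720940, plus strand). It was at 214, 132, 113, 98.5 and 105 CPM in p57KO 1 to 5, against 82.5, 47.5, 56.5, 60.8 and 30.7 CPM in p57WT 1 to 5. p57KO 1 stood far above the other p57KO libraries, yet the lowest p57KO library was still above the highest p57WT library. The means were 133 ± 47.4 CPM in p57KO and 55.6 ± 19.0 CPM in p57WT (SD, n = 5 each), and Myo1a rose (log2 fold change 1.25, SE 0.30, 95% limits 0.61 to 1.89, edgeR adjusted p = 0.00652). Without p57KO 1 Myo1a still passed (log2 fold change 1.02, edgeR adjusted p = 0.00962), and with the ribosomal RNA term it did not (log2 fold change 1.21, edgeR adjusted p = 0.0565). Epithelial scaling put Myo1a at -0.084 (95% limits -0.70 to 0.53, edgeR adjusted p = 0.811).

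The protocadherins Cdhr2 and Cdhr5, whose extracellular parts pair between microvillus tips, both rose. Cdhr5 (ENSMUSG00000025497, chromosome 7, 141269083 to 141276786, minus strand) was at 125, 276, 253, 190.1 and 184 CPM in p57KO 1 to 5, against 59.2, 38.1, 69.6, 53.1 and 37.5 CPM in p57WT 1 to 5. Each p57KO library exceeded each p57WT library by a wide margin. The means were 206 ± 60.2 CPM in p57KO and 51.5 ± 13.8 CPM in p57WT (SD, n = 5 each), a change second to that of Pls1 among the 10 genes on this scale (log2 fold change 2.00, SE 0.28, 95% limits 1.41 to 2.59, edgeR adjusted p = 0.000424). Cdhr2 (ENSMUSG00000034918, chromosome 13, 54701461 to 54736662, plus strand) was at 101, 109.7, 202, 158 and 158 CPM in p57KO 1 to 5, against 72.2, 45.4, 58.7, 53.1 and 32.8 CPM in p57WT 1 to 5. It too separated the genotypes, and p57KO 1 and 2 were its low p57KO libraries. The means were 146 ± 41.2 CPM in p57KO and 52.4 ± 14.7 CPM in p57WT (SD, n = 5 each) (log2 fold change 1.48, SE 0.27, 95% limits 0.90 to 2.05, edgeR adjusted p = 0.00161). Relative to the epithelial markers the log2 fold changes were 0.70 (95% limits -0.072 to 1.47, edgeR adjusted p = 0.102) for Cdhr5 and 0.30 (95% limits -0.51 to 1.10, edgeR adjusted p = 0.501) for Cdhr2, both above 0 and neither called.

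Ush1c, the harmonin gene, encodes the PDZ scaffold that holds the protocadherin tails (ENSMUSG00000030838, chromosome 7, 46195350 to 46238503, minus strand). It was at 113, 144, 114, 106 and 107 CPM in p57KO 1 to 5, against 65.2, 37.9, 46.3, 50.1 and 37.1 CPM in p57WT 1 to 5. p57KO 2 was above the other p57KO libraries, which lay close together, and all were above p57WT. The means were 117 ± 15.6 CPM in p57KO and 47.3 ± 11.4 CPM in p57WT (SD, n = 5 each), and Ush1c rose (log2 fold change 1.31, SE 0.22, 95% limits 0.84 to 1.77, edgeR adjusted p = 0.00103). Its epithelial-scaled log2 fold change was -0.0073 (95% limits -0.64 to 0.63, edgeR adjusted p = 0.984).

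The other components of the adhesion complex, the ankyrin-repeat protein Anks4b and the myosin 7b light chain Calml4, rose with log2 fold changes of 1.67 (edgeR adjusted p = 0.00145) and 1.71 (edgeR adjusted p = 0.00138) with TMM, and were at 0.47 and 0.40 on the epithelial scale, where neither was called. Myo7b, the motor that brings the complex to the tip, did not pass (ENSMUSG00000024388, chromosome 18, 31959234 to 32036961, minus strand). It was at 110.0, 54.2, 61.1, 53.6 and 70.7 CPM in p57KO 1 to 5, against 83.7, 40.4, 65.8, 57.3 and 32.6 CPM in p57WT 1 to 5. The genotypes overlapped almost throughout, with p57KO 1 the highest library and p57WT 1 the next. The means were 69.9 ± 23.4 CPM in p57KO and 56.0 ± 20.3 CPM in p57WT (SD, n = 5 each) (log2 fold change 0.32, SE 0.29, 95% limits -0.31 to 0.95, edgeR adjusted p = 0.407). Per 1000 CPM of epithelial marker, Myo7b was at 7.48 ± 2.37 in p57KO and 14.7 ± 2.91 in p57WT, and the ranges, 4.02 to 10.4 in p57KO and 11.2 to 18.9 in p57WT, did not overlap. Its epithelial-scaled log2 fold change was -0.97 (95% limits -1.66 to -0.28, edgeR adjusted p = 0.0173), which passed, but 60.5% of all genes were called lower on that scale.

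**Figure D2:**
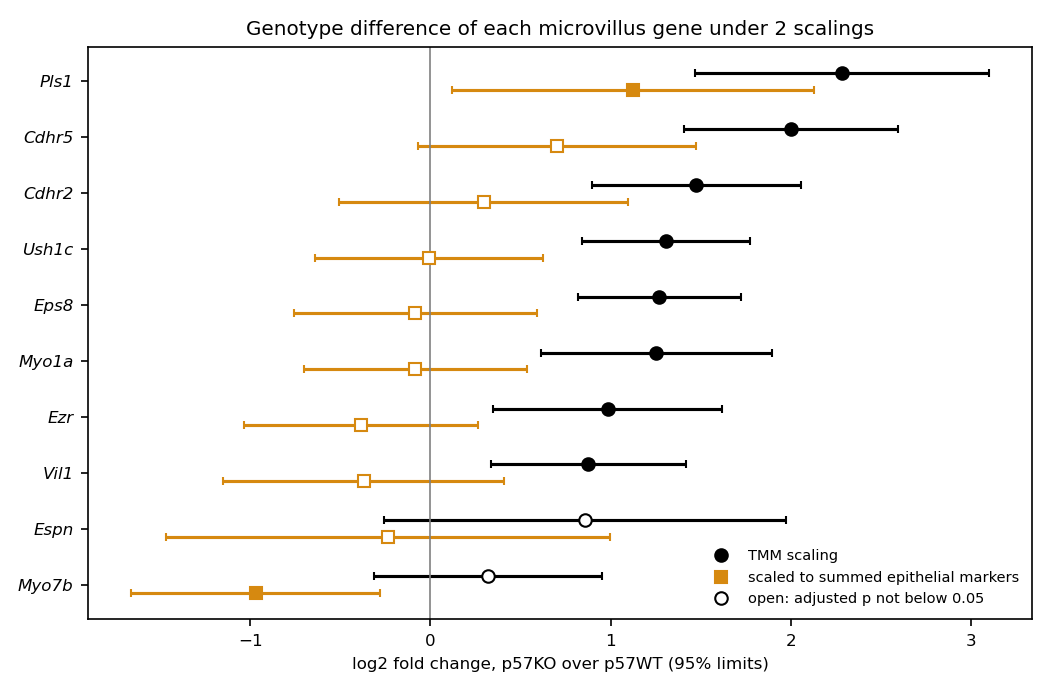
Log2 fold change (p57KO over p57WT) of each microvillus gene with its 95% limits, with TMM and with scaling to the summed epithelial markers, filled where the adjusted p was below 0.05. With TMM, where the median of all genes was 0.080, 8 of the 10 genes passed, all higher; with epithelial scaling, where that median was -1.29, the values straddle 0, and Pls1 passed as higher and Myo7b as lower.

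Because any scaling cancels in a ratio of genes within a library, ratios show where the genes changed unequally. Of the 45 pairs among the 10 genes, 41 had ratios that overlapped between genotypes, and the 4 given here were picked because they did not. All 4 ratios are between levels in CPM per kilobase of exon, that is, CPM divided by exon length. The ratio of Pls1 to Vil1 averaged 0.501 ± 0.186 in p57KO (range 0.269 to 0.698) and 0.196 ± 0.0497 in p57WT (range 0.131 to 0.258). The ratio of Cdhr5 to Vil1 averaged 0.909 ± 0.402 in p57KO (range 0.538 to 1.58) and 0.407 ± 0.0627 in p57WT (range 0.329 to 0.468). For both, every p57KO library was above every p57WT library. The ratio of Myo1a to Myo7b, the membrane motor over the tip motor, averaged 3.41 ± 0.607 in p57KO (range 2.64 to 4.33) and 1.79 ± 0.215 in p57WT (range 1.53 to 2.10), again without overlap. The ratio of Ezr to Myo7b averaged 11.8 ± 5.51 in p57KO (range 8.47 to 21.6) and 7.19 ± 0.570 in p57WT (range 6.57 to 7.76). These ratios, chosen by their values, are descriptions over 5 libraries a genotype. Their size rests on the annotated exon lengths used as divisors, so their difference between genotypes is what can be read from them.

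The genes differed in how they varied among libraries of 1 genotype. After the genotype means were taken off the log2 levels, 43 of 45 gene pairs were positively correlated over the 10 libraries, with a median Pearson r of 0.48. Among the 5 p57WT libraries all 45 pairs were positive, with a median r of 0.82, and p57WT 1 and 3 tended to be high and p57WT 5 low. Among the 5 p57KO libraries 20 of 45 were positive, with a median r of -0.069. There Ezr and Pls1 ran against each other (r = -0.97), whereas Cdhr2 and Pls1 ran together (r = 0.94). These correlations share libraries, depth and scaling and are given as descriptions.

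**Figure D3:**
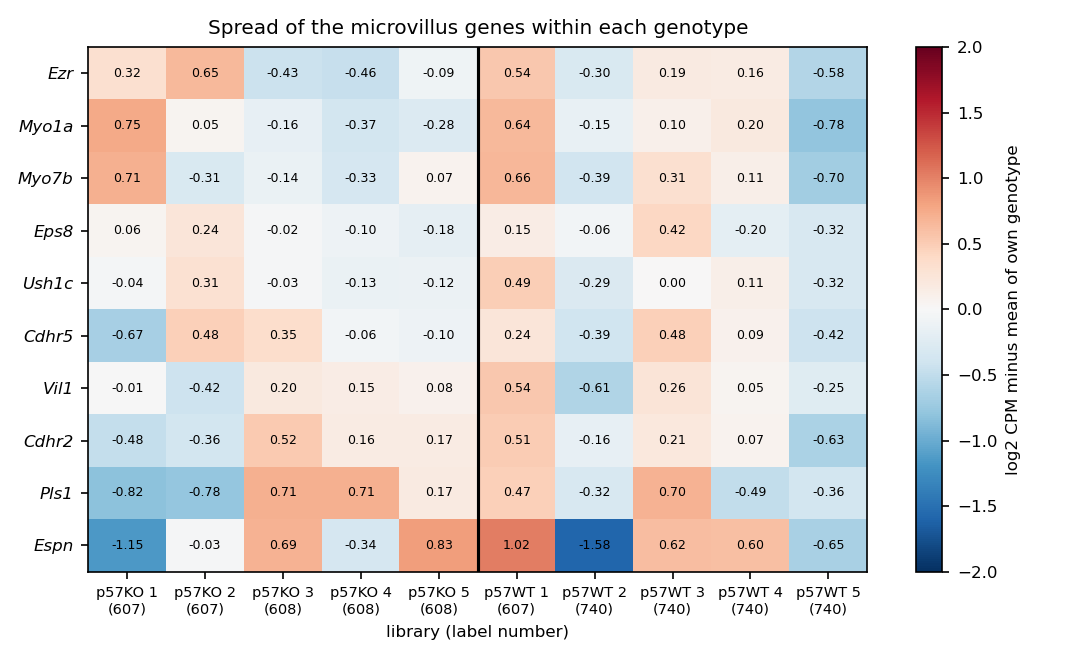
Deviation of each gene's log2 CPM from its genotype mean in each library, p57KO libraries left of p57WT libraries. In p57KO 1 and 2 Ezr and Myo1a tend to lie above their mean and Pls1 and Cdhr2 below it, while in p57WT most of the genes deviate together, up in p57WT 1 and down in p57WT 5.

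Within p57KO, the libraries high for Ezr and low for Pls1 were those of 1 label number. Within p57KO, libraries of 607 set against those of 608 gave a log2 difference of -1.35 for Pls1 (edgeR adjusted p = 0.0617) and 0.82 for Ezr (edgeR adjusted p = 0.147). By this test 0 of the 10 genes passed (3 had an unadjusted p below 0.05), beside 6.68% of all genes. Within p57WT, the library of 607 set against those of 740 gave log2 differences between 0.16 and 1.03, above 0 for all 10, and edgeR called 0 of all genes (366 had an unadjusted p below 0.05). The epithelial marker sum was higher in p57KO 1 and 2 than in the other p57KO libraries, and the leukocyte marker sum was high in p57KO 2. Within 607, the one number that holds both genotypes, 2 p57KO libraries were set against 1 p57WT library, which was assumed to vary like the others. There 0 of the 10 genes passed (4 had an unadjusted p below 0.05), beside 6.04% of all genes. The log2 fold changes within 607 were 1.76 (edgeR adjusted p = 0.0965) for Cdhr5, 1.28 (edgeR adjusted p = 0.0988) for Eps8, 1.07 (edgeR adjusted p = 0.223) for Myo1a, 0.98 (edgeR adjusted p = 0.163) for Ush1c, 0.95 (edgeR adjusted p = 0.317) for Pls1 and 0.93 (edgeR adjusted p = 0.264) for Ezr. For the remaining genes they were 0.54 (edgeR adjusted p = 0.478) for Cdhr2, 0.18 (edgeR adjusted p = 0.843) for Vil1, -0.028 (edgeR adjusted p = 0.981) for Myo7b and -0.53 (edgeR adjusted p = 0.758) for Espn. 8 of the 10 values were above 0, and those of Pls1, Espn, Cdhr2 and Vil1 lay farthest below the values over all libraries. Label number and genotype cannot be told apart for the other 7 libraries.

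Levels of different genes can be compared once divided by the length of their exons. In CPM per kilobase of exon, Ezr was the most abundant on average, at 118 ± 40.8 in p57KO and 59.5 ± 17.6 in p57WT (SD, n = 5 each). Vil1 came next, at 86.1 ± 13.4 in p57KO and 47.0 ± 14.0 in p57WT. Cdhr5 followed in both genotypes, at 75.1 ± 22.0 in p57KO and 18.8 ± 5.05 in p57WT. Pls1 changed places most, with 3 genes above its mean level in p57KO and 6 in p57WT, at 44.5 ± 21.3 in p57KO and 9.14 ± 3.59 in p57WT. Myo1a was at 35.7 ± 12.8 in p57KO and 14.97 ± 5.11 in p57WT, Cdhr2 at 35.3 ± 9.97 in p57KO and 12.7 ± 3.56 in p57WT and Ush1c at 30.4 ± 4.06 in p57KO and 12.3 ± 2.97 in p57WT. These last 3 lay close together within each genotype. Low in both genotypes were Eps8, at 15.5 ± 1.78 in p57KO and 6.43 ± 1.36 in p57WT, and Myo7b, at 10.6 ± 3.54 in p57KO and 8.45 ± 3.07 in p57WT. Espn was last, at 0.931 ± 0.464 in p57KO and 0.518 ± 0.300 in p57WT. Of the neighbours in this order, Ush1c and Eps8, and Myo7b and Espn, did not overlap in p57KO, and Vil1 and Cdhr5, and Eps8 and Espn, did not overlap in p57WT. The ranges of all other neighbours overlapped, though some pairs kept their order within each library. Cdhr5 was above Pls1 in all 5 p57KO libraries, and Ezr above Vil1 and Myo1a above Cdhr2 in all 5 p57WT libraries. The order of the remaining overlapping neighbours held in 2 to 4 of the 5 libraries.

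**Figure D4:**
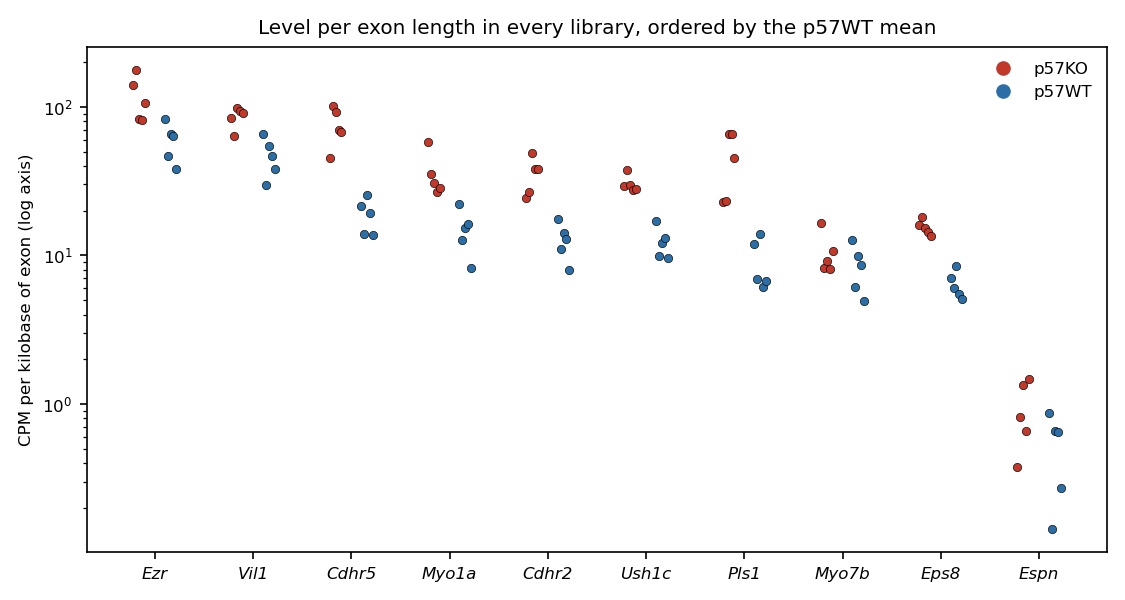
Level of each microvillus gene per kilobase of exon (CPM per kilobase, log axis), p57KO left of p57WT, ordered by the mean in p57WT; points are libraries. Ezr has the highest mean and Espn the lowest in both genotypes, and Pls1 has 3 genes above it in p57KO and 6 in p57WT.

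Relatives of these genes place each within its family. Among ezrin, radixin and moesin, the 3 linkers of membrane and actin, Ezr was at 118 ± 40.8 in p57KO and 59.5 ± 17.6 in p57WT CPM per kilobase, Rdx at 8.78 ± 3.91 in p57KO and 27.2 ± 8.13 in p57WT and Msn at 11.6 ± 8.99 in p57KO and 15.9 ± 8.64 in p57WT. Rdx fell (log2 fold change -1.63, edgeR adjusted p = 0.00262), and Msn did not pass (-0.45, edgeR adjusted p = 0.469). The ratio of Ezr to Rdx in CPM per kilobase averaged 16.8 ± 11.5 in p57KO (range 7.30 to 32.8) and 2.44 ± 1.35 in p57WT (range 1.27 to 4.59), with no overlap. That of Ezr to Msn overlapped, with ranges of 6.59 to 28.3 in p57KO and 1.60 to 9.58 in p57WT. Among the plastins, Pls1 was at 44.5 ± 21.3 in p57KO and 9.14 ± 3.59 in p57WT CPM per kilobase, the leukocyte form Lcp1 at 12.2 ± 6.18 in p57KO and 2.24 ± 0.862 in p57WT and the widespread form Pls3 at 8.16 ± 6.15 in p57KO and 12.5 ± 5.88 in p57WT. Lcp1 rose (log2 fold change 2.44, edgeR adjusted p = 0.00109) beside leukocyte markers whose sum was 205 to 8483 CPM in p57KO and 28.7 to 149 CPM in p57WT, and Pls3 did not pass (-0.61, edgeR adjusted p = 0.365).

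In the villin and gelsolin family, Vil1 was at 86.1 ± 13.4 in p57KO and 47.0 ± 14.0 in p57WT CPM per kilobase and Gsn, which severs actin in many cell types, at 41.0 ± 23.6 in p57KO and 146 ± 77.7 in p57WT. Svil, or supervillin, which has a muscle form, was at 10.2 ± 2.43 in p57KO and 41.2 ± 7.98 in p57WT and fell (log2 fold change -2.01, edgeR adjusted p = 0.000286), beside the lower smooth muscle marker sums given above. Gsn also fell (-1.83, edgeR adjusted p = 0.0138), whereas the actin-severing Scin rose (2.06, edgeR adjusted p = 0.000957), as did the capping protein Capg (3.04, edgeR adjusted p = 0.0107). Capg was at 26.7, 147, 13.0, 9.66 and 4.16 CPM per kilobase in p57KO 1 to 5, against 4.68, 4.78, 3.83, 3.72 and 7.36 CPM per kilobase in p57WT 1 to 5. It was far highest in p57KO 2, which also had the highest leukocyte marker sum, and p57KO 5 lay within the p57WT range. The ratio of Vil1 to Svil in CPM per kilobase averaged 8.66 ± 1.80 in p57KO (range 6.70 to 11.6) and 1.24 ± 0.678 in p57WT (range 0.663 to 2.37). Of the Eps8-like genes, Eps8l3 was the most abundant per kilobase, at 162 ± 84.6 in p57KO and 40.6 ± 15.3 in p57WT, and rose (2.00, edgeR adjusted p = 0.00252), as did Eps8l2 (1.08, edgeR adjusted p = 0.00374). Myo7a, the close relative of Myo7b known from hair cells of the ear, was at 3.05 ± 1.04 in p57KO and 1.52 ± 0.358 in p57WT CPM per kilobase and rose (1.01, edgeR adjusted p = 0.0165). In all, 6 of 15 tested relatives rose and 3 fell with TMM, beside 19.3% and 17.2% of all genes, and on the epithelial scale 0 were called higher and 8 lower, beside 2.44% and 60.5% of all genes.

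Among further microvillus and apical proteins the lists moved unequally; their counts with TMM stand against 19.3% of all genes called higher and 17.2% called lower. Of 10 tested tip and bundling factors 4 rose, Tmod3 (log2 fold change 1.12), Misp (1.01), Capza2 and Twf2, and 2 fell, Cobl (-1.90) and Enah (-2.58); their median was 0.81. Tmod3 caps slow-growing filament ends and Misp binds the bundle's rootlet, while Cobl nucleates actin and Enah speeds filament growth, also in muscle and mesenchymal cells. Of 9 brush border myosins and light chains, Myo5b (1.10) and Myo6 (0.73), which move apical cargo, rose and Myo1c (-1.61) fell, with a median of 0.50. Of 8 genes for apical delivery 6 rose and 0 fell, with a median of 0.999, among them Stxbp2 (1.63), Vamp8 (1.28), Rab8a (1.18) and Stx3 (0.99), the fusion machinery that brings vesicles to the brush border.

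Scaffolds that bind ezrin or its partners also rose in part. Slc9a3r1 (1.74), Pdzd3 (1.61) and Pdzk1 (3.86), PDZ proteins that hold transporters at the brush border, rose, and Rdx fell, so that 3 of 8 tested rose, 1 fell and the list's median was -0.45. Pdzk1 averaged 7.49 ± 6.40 CPM in p57KO and 0.536 ± 0.362 CPM in p57WT, near the level of 3 counts, and its SE was 0.88. Of 13 genes of the terminal web, the actin and spectrin mat under the microvilli, Tpm3 (1.27) and Cgn rose and 4 fell, Tpm1 (-2.25), Plec (-1.77), Myh10 (-1.85) and Sptan1. Their median was -0.31, and most of these genes also serve smooth muscle. Of 12 transcription factors known to act in the intestine 6 rose, among them Elf3 (1.87), Hnf4g (2.05) and Cdx1 (1.29), and Srf, which binds CArG boxes, fell (-1.60); their median was 0.81. Each call is by edgeR with an adjusted p below 0.05 and TMM. With epithelial scaling the counts called higher and lower were 0 and 4 of 10 tip and bundling factors, 0 and 4 of 9 myosins and light chains, 0 and 0 of 8 delivery genes, 1 and 5 of 8 kinases and scaffolds, 0 and 10 of 13 terminal web genes and 0 and 4 of 12 transcription factors, beside 2.44% and 60.5% of all genes. There the log2 fold changes of Tmod3, Misp, Myo5b, Myo6, Tpm3, Stx3, Vamp8, Rab8a and Cdx1 were below 0.

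Several of these calls on related genes depended on the model. With the label number as a term, none of the rises of the related genes that the naming rule picked passed, including those of Anks4b, Calml4, Scin, Lcp1 and Eps8l3, and Pdzk1 was at 0.60 (edgeR adjusted p = 0.784). With the ribosomal RNA term the calls of Stxbp2, Vamp8, Rab8a, Tmod3, Tpm3, Eps8l3 and Myo6 were lost, with edgeR adjusted p between 0.0527 and 0.126. The call of Myo6 was also lost without p57KO 1 (log2 fold change 0.55, edgeR adjusted p = 0.0630), without p57KO 1 and 2 (log2 fold change 0.63, edgeR adjusted p = 0.0523), and without p57WT 2, 3, 4 or 5 (edgeR adjusted p between 0.0579 and 0.0957).

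**Figure D5:**
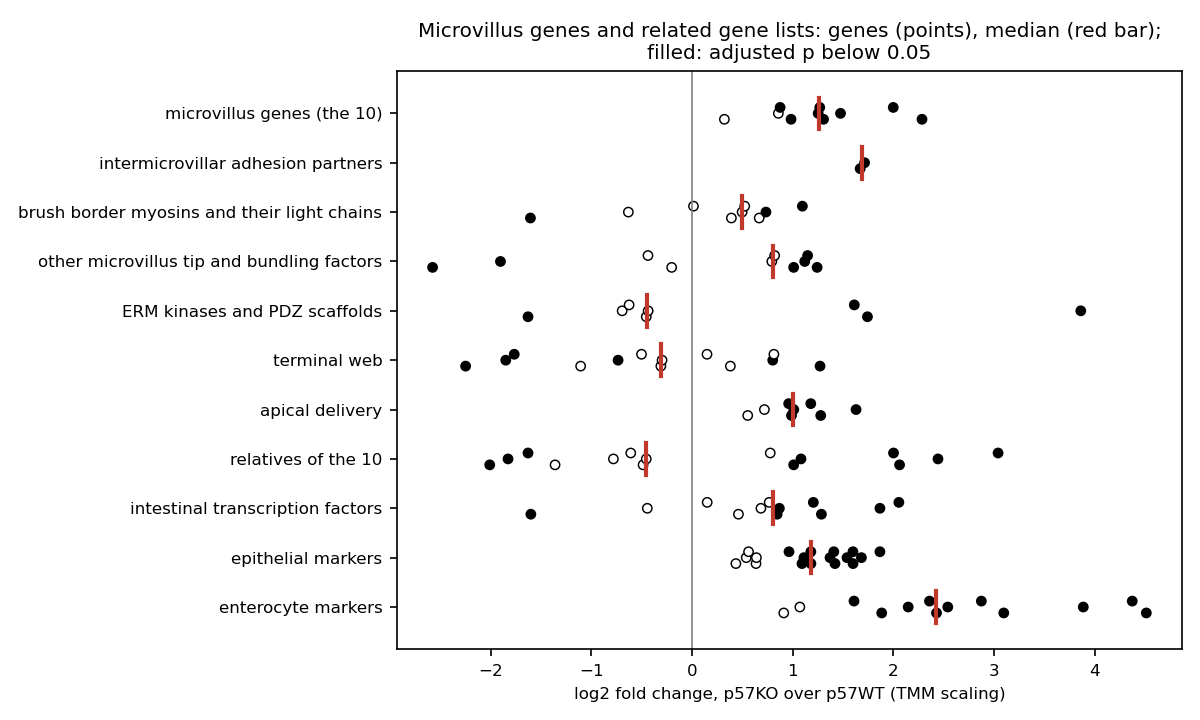
Log2 fold change (p57KO over p57WT, TMM) of the microvillus genes, related lists and epithelial and enterocyte markers; each point is a gene, filled where the adjusted p was below 0.05, and red bars mark list medians. The microvillus genes all lie above 0 on this scale (7 of 10 are below 0 with epithelial scaling), whereas the terminal web and the relatives of the 10 genes spread to both sides.

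A search for similar genes left out the 10 themselves, sex-linked and mitochondrial genes, and genes with provisional or pseudogene symbols. The genes that followed the mean standardized log2 CPM of the 10 most closely came from 10840 genes averaging 5 CPM or more. Over all 10 libraries they were Mob3b (r = 0.99), Hkdc1 (r = 0.98), Ipmk (r = 0.98), Ndrg1 (r = 0.98), Mov10 (r = 0.98), Golm1 (r = 0.97), Gpd1 (r = 0.97), Eps8l2 (r = 0.97), Ifnlr1 (r = 0.97) and Cfi (r = 0.97). With the genotype means taken off, they were Mob3b (r = 0.94), Gpd1 (r = 0.93), Muc4 (r = 0.92), Hkdc1 (r = 0.91) and Ipmk (r = 0.90). Gpd1 encodes a glycerol phosphate dehydrogenase, Hkdc1 a hexokinase-like enzyme, Muc4 a membrane mucin and Eps8l2 a relative of Eps8. Mob3b, Hkdc1, Ipmk and Gpd1 were on both lists. The points share libraries and scaling, and the correlations carry no test.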

How the data were processed

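The members and gene lists were chosen with earlier results of these data known. Read counts per gene and library were deposited as whole numbers, next to a signal column per library that is the count over a size factor. Per the file headers, the authors' own comparison gives log2 fold changes with standard errors, a score (the Wald statistic) and each p-value before and after adjustment. Tools in the submitters' processing notes are STAR 2.6.1d, HTSeq 1.0, Cufflinks 2.2.1, DESeq2 1.22.2, Trim Galore and FastQC, and the build is mm10 or GRCm38. What each tool did, the annotation and the strandedness of counting are not given in the sources used here. With strandedness unknown, reads could not be assigned between Vil1 and Usp37, which share 49 exon bases on opposite strands, Ush1c and Gm9860 (120 bases) or Ezr and Sytl3 (4 bases).

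The counts were tested with edgeR 4.0.16 in R 4.3.3 (quasi-likelihood test, TMM, filterByExpr, genotype as the only term), which removed 3869 genes. Coordinates and exon lengths came from GENCODE M21 on GRCm38, which matched 20558 of 20579 identifiers. Epithelial scaling replaced library sizes by the summed counts of 18 markers in each library, without TMM. For correlations, a prior count of 2 was added before the log2. Alternatives were other size factors, DESeq2 1.42.0, limma 3.58.1 voom, no filter, terms for label number, replicate number and ribosomal RNA class (repeat features above 1% of counts), and leaving out libraries. 3 scalings were added after seeing the data: to the geometric mean of the epithelial markers, and to their sum without p57KO 1 and 2 or within 607. The scripts were tested on simulated data. Named were the 10 genes, Cdkn1c, Hopx, up to 4 genes with the smallest p in each related list, and the genes most like the 10; 1 gene that this rule picked is not reported here. Capza2, Twf2, Cgn, Sptan1, Gsn, Capg, Eps8l2, Myo7a, Msn and Pls3 were named after their values were seen. Espnl, Vill and Cdhr3 of the lists were not analysed here, and Cdhr1 and Cdhr4 were not tested. A count of 3 corresponds to between 0.105 and 0.392 CPM, counting error only.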

Additional observations from a re-analysis of the deposited data

Results flagged for a closer look

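Of 28 sets of 5 libraries examined, 5 held a library whose gap to its nearest neighbour exceeded Dixon's 95% critical value, where chance alone gives about 1 in 20. Myo1a was at 214 CPM in p57KO 1, far above the other p57KO libraries. Ush1c was at 144 CPM in p57KO 2, above the other p57KO libraries. The summed leukocyte markers were at 8483 CPM in p57KO 2 and, among p57WT libraries, at 149 CPM in p57WT 5. The summed smooth muscle markers were at 108806 CPM in p57WT 2, the library that was lowest for Vil1 and Espn among p57WT.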

How the results depend on the processing

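The 8 calls were the same with DESeq2 size factors, DESeq2, limma voom and no filter. Replicate numbers did not pair libraries: same-numbered libraries had correlations of deviations between -0.16 and 0.21, and not every library correlated best with its own number. With the replicate block 8 of the microvillus genes passed, and 5804 genes in all. Leaving out 1 library each gave 7 to 8 of them and 4763 to 7141 genes of all. With the label number as a term, as within 607, 0 of them passed and 1009 genes of all (18.1% of them higher, against 52.8% with TMM alone), and Espn was at -0.53 and Myo7b at -0.028. With the ribosomal RNA class as a term 6 of them passed, without Ezr (log2 fold change 1.06, edgeR adjusted p = 0.0810) and Myo1a (log2 fold change 1.21, edgeR adjusted p = 0.0565), and 2959 genes of all (40.8% higher).

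With epithelial scaling 2 microvillus genes passed, 1 higher and 1 lower, and 10517 genes of all (3.88% higher). Log2 fold changes were then -0.37 for Vil1, -0.39 for Ezr, -0.23 for Espn, -0.083 for Eps8, -0.084 for Myo1a, -0.0073 for Ush1c and -0.97 for Myo7b. Among other named genes they were -0.14 for Myo5b, -0.59 for Myo6, -0.25 for Tmod3, -0.26 for Misp, -0.17 for Tpm3, -0.28 for Stx3, -0.15 for Vamp8, -0.13 for Rab8a and -0.0075 for Cdx1. With the geometric mean of the markers 3 microvillus genes passed (Pls1 and Cdhr5 higher, Myo7b lower) and 9600 genes of all (5.74% higher); values below 0 were -0.19 for Vil1, -0.77 for Myo7b, -0.070 for Espn and -0.16 for Ezr. With the marker sum but without p57KO 1 and 2, 4 microvillus genes passed (Pls1, Cdhr5 and Cdhr2 higher, Myo7b lower) and 9092 genes of all, and values below 0 were -0.00094 for Vil1, -0.029 for Myo1a, -0.81 for Myo7b and -0.37 for Ezr. With the marker sum within 607, 0 passed and 4202 genes of all, and values below 0 were -1.06 for Vil1, -0.16 for Myo1a, -1.26 for Myo7b, -1.77 for Espn, -0.69 for Cdhr2, -0.25 for Ush1c, -0.31 for Ezr and -0.29 for Pls1. The cause of these shifts between scalings was not tested beyond the marker sums. Over the alternatives tallied, with the label number counted once, log2 fold changes of the 10 genes kept direction and call in 173 cases. They lost the call in 22 and turned in 25. The 3 scalings added after seeing the data were tallied for the 10 genes only and hold 4, 4 and 8 of these turns. For the other named genes, without those 3 scalings, the cases were 495, 47 and 9, so the tallies are not like for like. Espn had the fewest counts of the 10 genes and the widest limits.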

Other observations

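Other cells that the sort could hold also differed between genotypes. Of 4 fibroblast markers tested, 4 fell, with sums of 89.4 to 1096 CPM in p57KO and 2279.6 to 8021 CPM in p57WT. Of 6 erythroid markers, 6 rose, with sums of 92.7 to 1134 CPM in p57KO and 2.09 to 77.3 CPM in p57WT, and of 8 leukocyte markers tested, 8 rose, with a median log2 fold change of 4.51. Of 9 smooth muscle markers 9 fell, with a median of -2.01. Of 6 enteric neuron and glia markers tested, 2 fell and 0 rose, with sums of 16.5 to 36.1 CPM in p57KO and 17.2 to 50.9 CPM in p57WT. The endothelial and mesothelial lists had 1 tested marker each, which did not pass, with sums of 1.496 to 13.5 CPM in p57KO and 0.553 to 8.42 CPM in p57WT for the endothelial list and 1.14 to 15.2 CPM in p57KO and 1.90 to 38.8 CPM in p57WT for the mesothelial list. The part of these cell types in the differences of the microvillus genes was not tested.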
